A study of Mus musculus with 8 samples.

Results

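The genes described here are the transforming growth factor beta (TGF-beta) ligands Tgfb1, Tgfb2 and Tgfb3, the latent TGF-beta binding proteins Ltbp1, Ltbp2, Ltbp3 and Ltbp4, the receptors Tgfbr1 and Tgfbr2, and the inhibitory Smad gene Smad7. They were found by mouse gene symbol and number 10 of the 41388 features counted in each library. Livers of 8 db/db mice, which lack a working leptin receptor and become obese and diabetic, were sequenced. All were littermates randomised at 5 weeks of age and labelled as strain C57B/6J, tissue liver and age 10 weeks. Through the tail vein, 4 of them received an adenovirus encoding green fluorescent protein (AdGFP, genotype label control) and 4 an adenovirus encoding nicotinamide phosphoribosyltransferase, the enzyme of NAD salvage (AdNAMPT, genotype label NAMPT overexpression). The series design has the overexpression last 4 to 5 weeks, whereas the paper's methods and its legend on adipose tissue of these mice give shorter times after delivery, so the exposure is uncertain. The db/db status stands in the sample titles, the paper calls the overexpression specific to hepatocytes while no promoter is named for the vector, and there was no group without virus. The family was chosen by the measured falls of Tgfb1 and Ltbp3 in this same comparison, so for its members the differences between the groups, their intervals and their place against the threshold are given as a description, with no p-value, and support nothing further.

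TGF-beta is secreted in a latent form, in which the growth factor stays wrapped in its own propeptide. Latent binding proteins link that complex to the fibrillin matrix, and integrins or proteases release the active ligand. The ligand then joins the type II receptor to the type I receptor, which phosphorylates Smad proteins, and Smad7 is induced by the pathway and blocks it. In liver the pathway is best known for activating stellate cells and for raising collagen synthesis.

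The libraries held 12006713 to 19879814 counts, so that 3 reads, taken as the smallest detectable amount, were 0.151 to 0.250 CPM (counts scaled to the library total). Nampt itself, the transferred gene, was at 102.3 to 152.7 CPM in AdGFP and at 120.5 to 177.8 CPM in AdNAMPT, with a log2 fold change of 0.08 (95% interval -0.26 to 0.41, limma adjusted p 0.915). The count did not separate vector from endogenous transcripts and the groups overlapped, so every direction below rests on the labels, and AdNAMPT means the libraries labelled AdNAMPT. The summed CPM of 6 hepatocyte markers was 89577 to 113338 in AdGFP and 89824 to 112698 in AdNAMPT, as the liver label implies. AdNAMPT replicate 1 stood apart from the other libraries on the first principal component (31.7 against -11.1 to 2.64) and took the lowest sample weight in the fit, 0.440. Gm42418, a gene annotated within a ribosomal RNA repeat, took 0.996% to 2.25% of counts per AdGFP library and 0.200% to 0.233% per AdNAMPT library. Mitochondrial ribosomal RNA took 1.77% to 2.56% in AdGFP and 0.863% to 1.62% in AdNAMPT. Of 12270 genes tested, 34 passed the threshold of an adjusted p of at most 0.05 (0.277%), of which 32 were lower in AdNAMPT (0.261%).

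In AdGFP livers Tgfb1 was the leading ligand gene and its level in AdNAMPT livers was 4.21-fold lower. Ltbp3, which can bind the propeptide of every TGF-beta isoform, was lower as well, while the estimates of the 7 other members tested lay above 0. Of the 10 members, 9 passed the filter on low counts, which asks for more than 1 CPM in at least 3 libraries. Tgfb1 and Ltbp3 were the 2 members past the threshold, both lower. Against 0.261% of all genes this count says nothing further, since these falls chose the family. On TMM-scaled CPM the groups did not overlap for 2 members in the lower direction (2.7% of all genes), again Tgfb1 and Ltbp3, and for 1 member, Tgfb3, in the higher direction (2.09% of all genes).

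**Figure D1:**
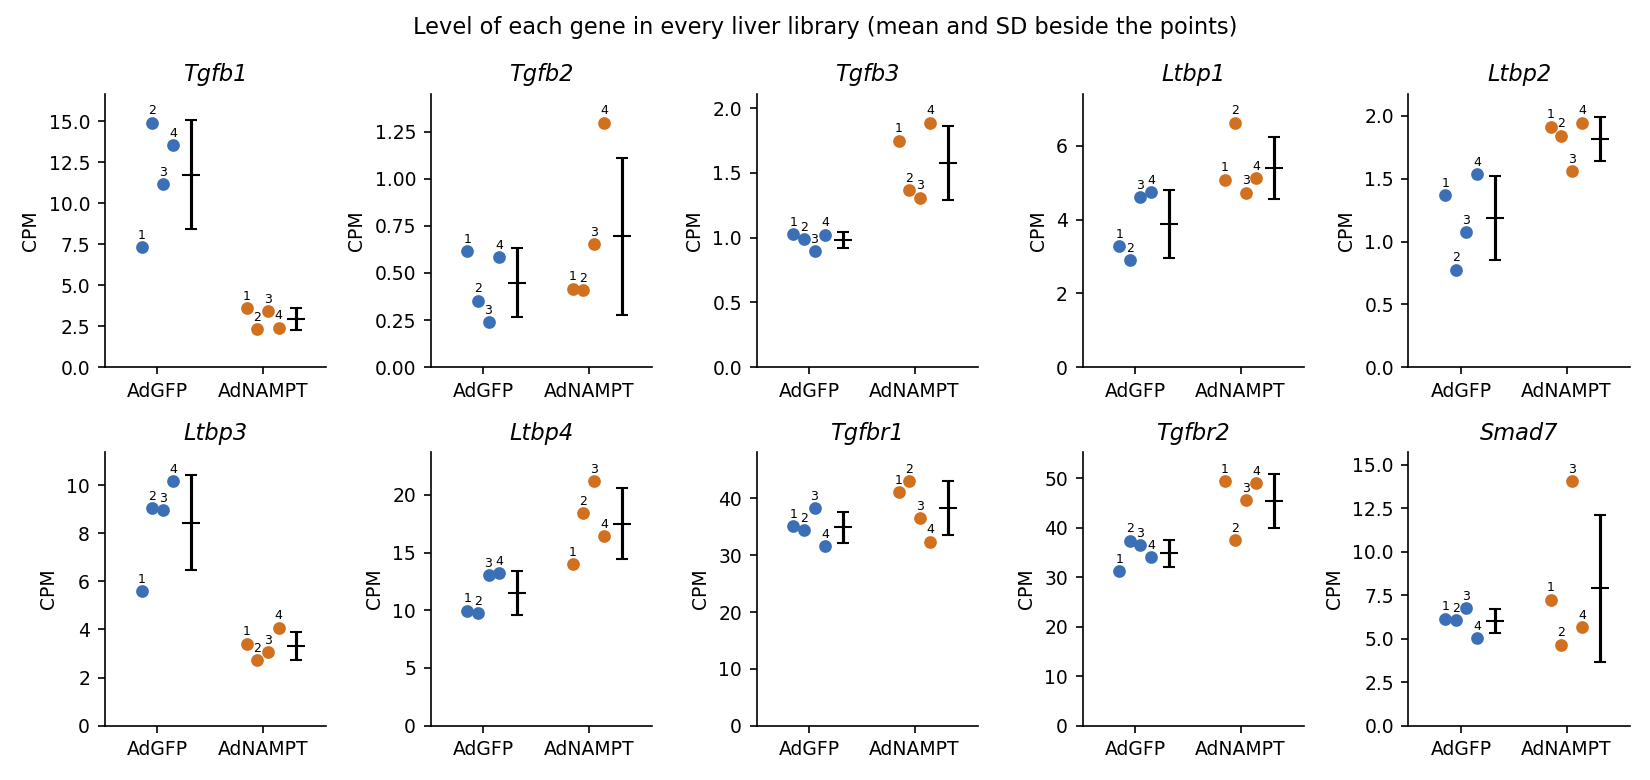
CPM of each member (vertical axis, starting at 0) in the 4 AdGFP and the 4 AdNAMPT libraries, with replicate numbers at the points and the mean and SD beside them. Tgfb1 and Ltbp3 have all AdNAMPT points below all AdGFP points, and Smad7 has a high point in AdNAMPT replicate 3.

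Among the ligands, Tgfb1 (ENSMUSG00000002603, chromosome 7, 25687002 to 25705077, plus strand, GRCm38) encodes TGF-beta1, the isoform made by many cells including macrophages and platelets. The AdGFP livers, replicates 1 to 4, gave 7.31, 14.9, 11.2 and 13.5 CPM. The AdNAMPT livers gave 3.58, 2.32, 3.42 and 2.42 CPM in the same order of numbers. The groups did not overlap, and the lowest AdGFP library still lay above the highest AdNAMPT library. Mean levels came to 11.7 ± 3.32 and 2.94 ± 0.658 CPM (SD, n = 4 each), behind which stood 107 to 211 reads per AdGFP library and 34 to 68 reads per AdNAMPT library. The log2 fold change was -2.07 (SE 0.30, 95% interval -2.72 to -1.42), or 4.21-fold lower. Its estimate stayed between -2.31 and -1.93 under 19 alternatives, but without AdNAMPT replicate 2, where it was -1.93, it no longer passed the threshold.

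Tgfb3 (ENSMUSG00000021253, chromosome 12, 86056744 to 86079041, minus strand) encodes TGF-beta3, an isoform known from palate development and wound repair. It was low, as the AdGFP livers gave 1.03, 0.988, 0.896 and 1.02 CPM and the AdNAMPT livers 1.75, 1.37, 1.31 and 1.89 CPM. Every AdNAMPT library lay above every AdGFP library, yet the counts were only 14 to 15 reads and 20 to 32 reads. Its log2 fold change was 0.50 (SE 0.22, 95% interval 0.02 to 0.98) and it did not pass the threshold. The spread within AdGFP, a coefficient of variation of 6.16%, was smaller than the 26.3% that counting error alone gives at such depth, so the tightness of those 4 values is not a measure of precision.

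Tgfb2 (ENSMUSG00000039239, chromosome 1, 186623186 to 186705992, minus strand), which encodes TGF-beta2, was barely covered. Replicates 1 to 4 yielded 9, 5, 4 and 8 reads with AdGFP and 5, 6, 13 and 22 reads with AdNAMPT. The values of the groups crossed, AdNAMPT replicate 4 being the only library above 1 CPM, and the gene failed the filter. In the same model without the filter its log2 fold change was 0.37 (SE 0.44, 95% interval -0.58 to 1.33), so no difference in Tgfb2 was detectable at this depth.

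Ligand genes were compared with one another only per exonic length, as deposited RPKM, which is CPM divided by exonic length in kilobases. Tgfb1 made up 86.8%, 94.1%, 93.3% and 92.5% of the summed RPKM of the ligand genes in the AdGFP livers, replicates 1 to 4. Its share in the AdNAMPT livers was 69.8%, 64.9%, 71.8% and 53.2%. Tgfb3 then held 20.8% to 31.4% of that sum, against 4.72% to 9.20% in AdGFP. The ligand sum was 4.97 ± 1.28 RPKM with AdGFP and 1.76 ± 0.259 RPKM with AdNAMPT (SD, n = 4 each). Since Tgfb1 is its main term, the sum and the shares of it are another view of the same difference. Tgfb1 remained the leading ligand gene in each of the 8 libraries.

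Among the latent binding proteins, Ltbp3 (ENSMUSG00000024940, chromosome 19, 5740904 to 5758532, plus strand) gave 5.60, 9.04, 8.96 and 10.2 CPM in the AdGFP livers, replicates 1 to 4. The AdNAMPT livers gave 3.41, 2.73, 3.07 and 4.07 CPM. The groups did not overlap, with AdGFP replicate 1 the lowest of its group for Ltbp3, as it was for Tgfb1. Mean levels came to 8.44 ± 1.97 and 3.32 ± 0.571 CPM (SD, n = 4 each), from 82 to 150 and from 40 to 69 reads per library. The log2 fold change was -1.44 (SE 0.24, 95% interval -1.97 to -0.91), or 2.71-fold lower. The call on Ltbp3 held in 11 of 11 alternatives with all libraries but was lost in 7 of 8 fits with 1 library left out. The exception was the fit without AdGFP replicate 1. The estimates of those 8 fits ran from -1.65 to -1.31. Without AdNAMPT replicate 1, the library that stood apart, the log2 fold changes were -2.08 for Tgfb1 and -1.41 for Ltbp3.

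Ltbp4 (ENSMUSG00000040488, chromosome 7, 27305136 to 27337692, minus strand), which binds latent TGF-beta1 weakly and also takes part in elastic fibre assembly, had a positive estimate. The AdGFP livers, replicates 1 to 4, gave 9.98, 9.74, 13.0 and 13.2 CPM, and the AdNAMPT livers 14.0, 18.4, 21.2 and 16.4 CPM. On the CPM scale no AdNAMPT library reached down to the AdGFP range, but after scaling by TMM factors the values of the groups crossed. The log2 fold change was 0.55 (SE 0.13, 95% interval 0.26 to 0.84), and Ltbp4 did not pass the threshold in any of 19 alternatives.

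Ltbp1 (ENSMUSG00000001870, chromosome 17, 75005568 to 75392512, plus strand), which like Ltbp3 binds latent TGF-beta of every isoform, was at 2.89 to 4.75 CPM in AdGFP and 4.73 to 6.62 CPM in AdNAMPT. Ltbp2 (ENSMUSG00000002020, chromosome 12, 84783212 to 84876532, minus strand), a fibrillin partner that does not bind latent TGF-beta, was at 0.777 to 1.53 CPM in AdGFP and 1.56 to 1.95 CPM in AdNAMPT. Their log2 fold changes were 0.37 (SE 0.19) and 0.46 (SE 0.23), and both 95% intervals included 0. Neither gene passed the threshold, and on the TMM scale the groups overlapped for both.

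Over the latent binding proteins together, the summed RPKM was 3.92 ± 0.692 with AdGFP and 4.09 ± 0.408 with AdNAMPT (SD, n = 4 each), and the libraries' values overlapped. Within that sum Ltbp3 held 34.8% to 48.1% per AdGFP library and 12.4% to 19.3% per AdNAMPT library. Ltbp4 held 41.6% to 49.7% in AdGFP and 61.1% to 72.7% in AdNAMPT. Per exonic length Ltbp4 stood at 0.866 to 1.43 times Ltbp3 in AdGFP and at 3.25 to 5.54 times in AdNAMPT. Since Ltbp3 is a term of that sum and of that ratio, its fall raises these Ltbp4 values in part by construction. They are therefore no separate result on Ltbp4, which did not pass the threshold.

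**Figure D2:**
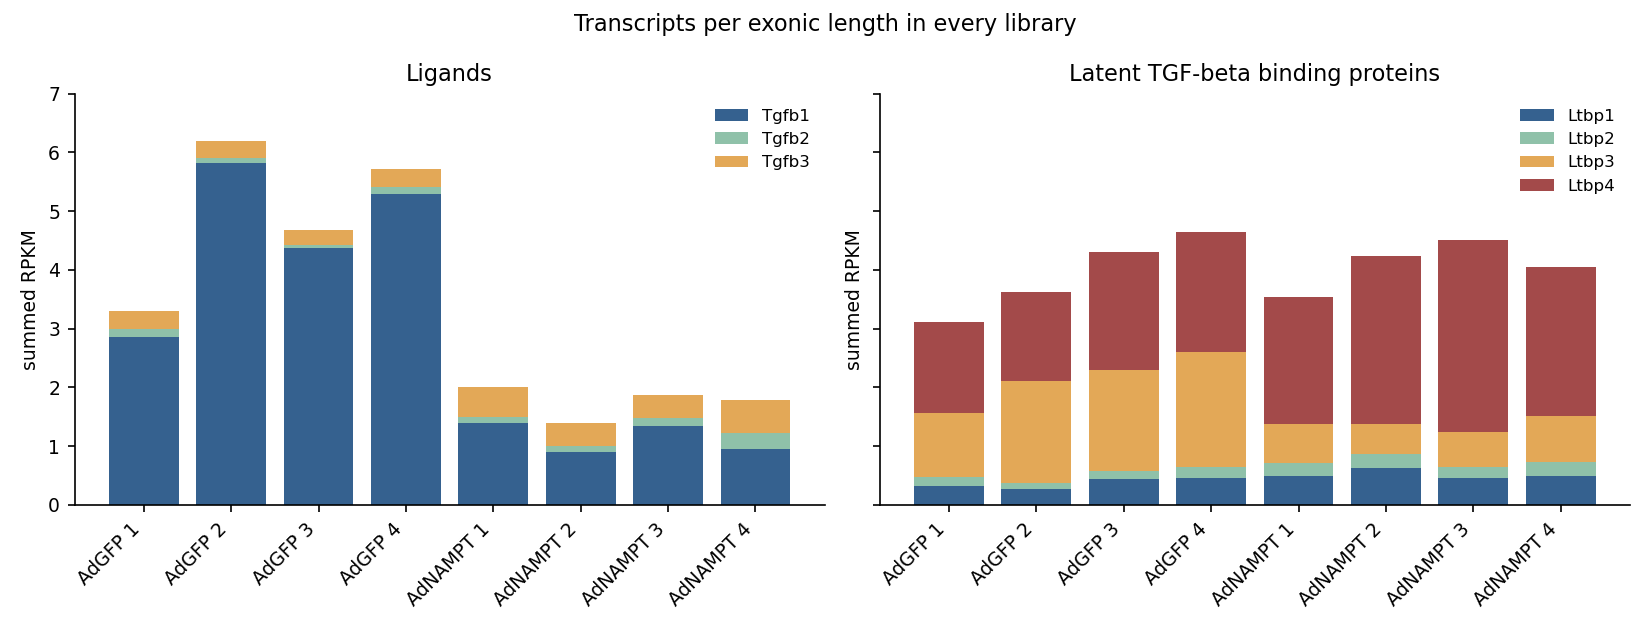
Stacked RPKM (vertical axis, from 0) of the ligand genes and of the latent binding protein genes in each of the 8 libraries. The ligand bars shrink with Tgfb1 from at least 3.29 RPKM per AdGFP library to at most 2.01 RPKM per AdNAMPT library. The bars of the binding proteins keep overlapping heights with less Ltbp3 and more Ltbp4, of which only Ltbp3 passed the threshold.

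Among the receptors, Tgfbr2 (ENSMUSG00000032440, chromosome 9, 116087698 to 116175363, minus strand), the type II receptor that binds the ligand, gave 31.2, 37.4, 36.5 and 34.1 CPM in the AdGFP livers, replicates 1 to 4. The AdNAMPT livers gave 49.4, 37.6, 45.6 and 49.0 CPM. AdNAMPT replicate 2 lay beside the AdGFP libraries, and after TMM scaling the values of the groups crossed. The log2 fold change was 0.25 (SE 0.10, 95% interval 0.03 to 0.47), short of the threshold.

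Tgfbr1 (ENSMUSG00000007613, chromosome 4, 47353222 to 47414931, plus strand), the type I receptor kinase that phosphorylates the Smads, was at 31.6 to 38.3 CPM in AdGFP and 32.4 to 43.0 CPM in AdNAMPT. Its log2 fold change was 0.04 (SE 0.10, 95% interval -0.19 to 0.26), and 4 of 19 alternatives turned the sign. With 4477 reads over the 8 libraries, counting error was 4.39% per AdGFP library and 4.08% per AdNAMPT library. Both were smaller than the spread between mice, so depth did not set the width of the interval. The ratio of Tgfbr2 to Tgfbr1 in RPKM was 1.37 ± 0.132 with AdGFP and 1.65 ± 0.358 with AdNAMPT (SD, n = 4 each), with overlapping values.

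Smad7 (ENSMUSG00000025880), which recruits ubiquitin ligases to the type I receptor and is itself a target of the pathway, gave 6.15, 6.07, 6.75 and 5.04 CPM in the AdGFP livers, replicates 1 to 4. The AdNAMPT livers gave 7.25, 4.64, 14.0 and 5.66 CPM. AdNAMPT replicate 3 was high and AdNAMPT replicate 2 was the lowest of all libraries, so the values of the groups crossed. The coefficient of variation was 11.8% in AdGFP and 53.6% in AdNAMPT, against a counting error of 10.6% and 8.69%. The log2 fold change was 0.16 (SE 0.29, 95% interval -0.48 to 0.81), and it was -0.30 without AdNAMPT replicate 3 and 0.60 without AdNAMPT replicate 2.

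**Figure D3:**
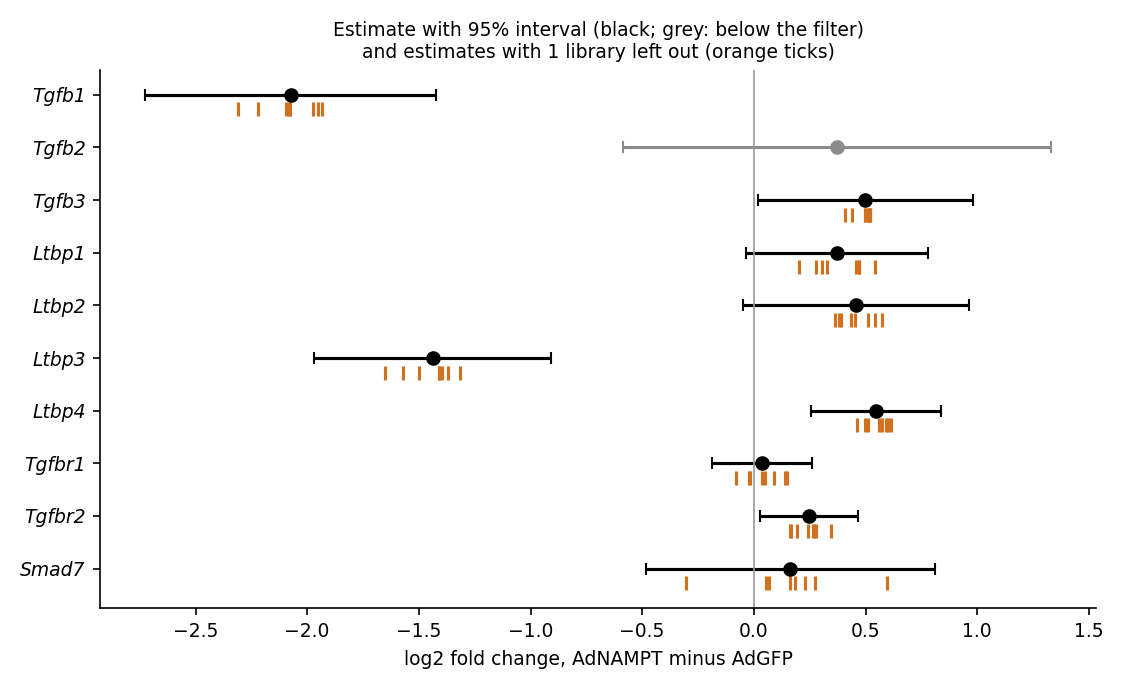
Log2 fold change of each member (horizontal axis, AdNAMPT minus AdGFP) with its 95% interval, and the estimates with 1 library left out as ticks below. Tgfb1 and Ltbp3 lie left of 0 with every tick on the same side, and the ticks of Smad7 run from -0.30 to 0.60.

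The order of levels per exonic length was read within each group. In AdGFP it ran Tgfbr2 (7.27 ± 0.579 RPKM), Tgfbr1 (5.34 ± 0.421), Tgfb1 (4.58 ± 1.30), Ltbp4 (1.78 ± 0.292) and Ltbp3 (1.63 ± 0.379), each as mean ± SD over 4 libraries. Below them came Smad7 (1.33 ± 0.157 RPKM), Ltbp1 (0.370 ± 0.0889), Tgfb3 (0.291 ± 0.0179), Ltbp2 (0.145 ± 0.0408) and Tgfb2 (0.0948 ± 0.0385). The receptor genes led, and Tgfbr2 stood above Tgfbr1 without overlap. Neighbours whose values overlapped, and so could not be ordered, were Tgfbr1 and Tgfb1, Ltbp4 and Ltbp3, Ltbp3 and Smad7, Ltbp1 and Tgfb3, and Ltbp2 and Tgfb2. Of all genes tested, 67.5% had a lower mean AdGFP RPKM than Tgfbr2, 56.7% than Tgfb1, 30.7% than Ltbp3 and 4.48% than Tgfb3, so several members sat near the bottom of what was measured. In AdNAMPT the receptors again led, Ltbp4 followed at 2.71 ± 0.471 RPKM and Smad7 at 1.75 ± 0.936 RPKM, and Tgfb1, at 1.15 ± 0.257 RPKM, came next, ahead of Ltbp3 at 0.640 ± 0.110 RPKM. Values of neighbours overlapped there for Ltbp4 and Smad7, for Smad7 and Tgfb1, for Ltbp3 and Ltbp1, for Ltbp1 and Tgfb3, and for Ltbp2 and Tgfb2.

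Several features of the libraries differed between the groups, as the levels of Tgfb1 and Ltbp3 did. By library, Gm42418 took 1.59%, 2.25%, 0.996% and 1.53% of the counts of the AdGFP livers, replicates 1 to 4, and 0.219%, 0.202%, 0.200% and 0.233% of those of the AdNAMPT livers. Its level was 15894 ± 5129 CPM with AdGFP and 2135 ± 154 CPM with AdNAMPT (SD, n = 4 each), with a log2 fold change of -2.90 (SE 0.19, limma adjusted p 1.39e-05), and mitochondrial ribosomal RNA was lower in AdNAMPT in the values given above. The part of these in the falls of Tgfb1 and Ltbp3 was not tested, and the group and the share of Gm42418 cannot be told apart, since no AdNAMPT library had as much as any AdGFP library. The longest run of bases that a transcript of Tgfb1 shares with Gm42418 on either strand is 13, and for Ltbp3 it is 12, against 11 to 14 for the other members and a read length of 50 bases. Transcript GC content was 56.2% for Tgfb1 and 60.3% for Ltbp3, where the median of all genes tested was 49.8%. For the 34 genes past the threshold, Tgfb1 and Ltbp3 among them, the mean was 58.9%, which is not the same measure as that median. Transcript GC content was 62.2% for Ltbp4, 58.6% for Smad7 and 58.6% for Ltbp2. With a GC correction of each library the log2 fold changes were -2.13 for Tgfb1 and -1.55 for Ltbp3. For Ltbp4, Ltbp2 and Smad7 they were 0.43, 0.38 and 0.10, against 0.55, 0.46 and 0.16 without the correction. The part of GC content in the falls was not tested.

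**Figure D4:**
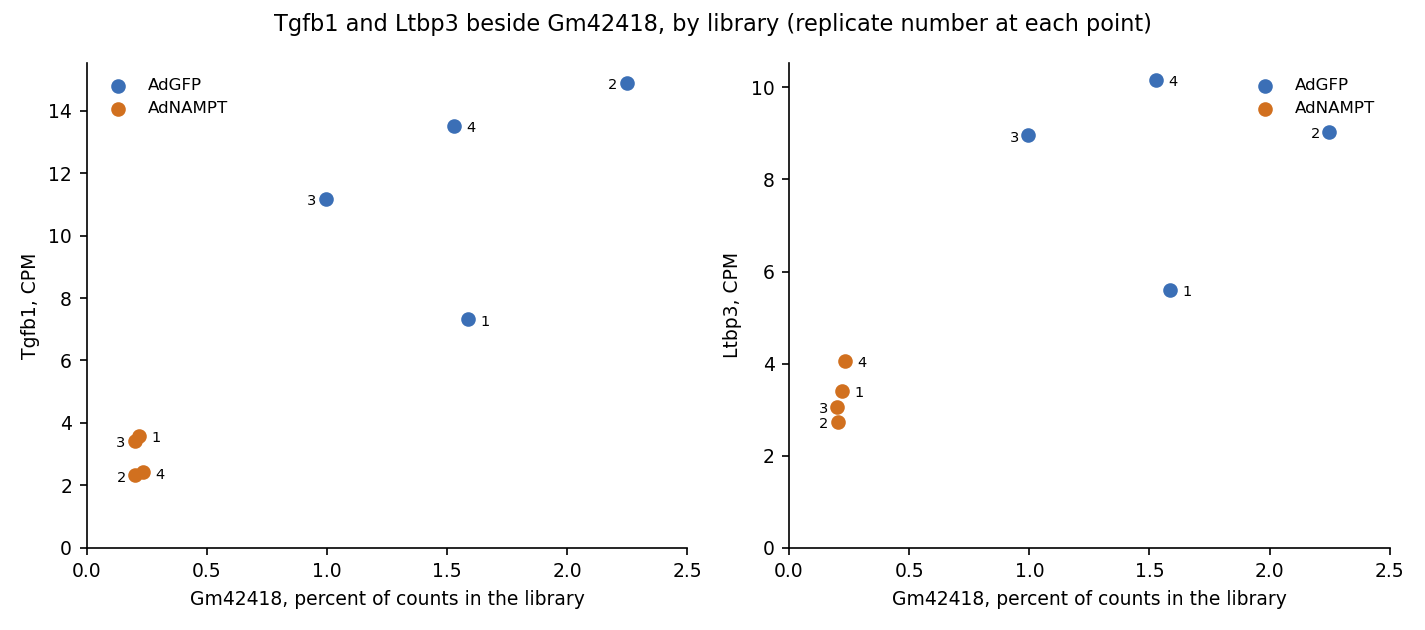
CPM of Tgfb1 and of Ltbp3 (vertical axes, from 0) against the percent of counts taken by Gm42418 in each library, with replicate numbers at the points. The AdNAMPT libraries sit together at 0.200% to 0.233% of Gm42418, and within AdGFP replicate 2 has both the most Gm42418 (2.25%) and the most Tgfb1 (14.9 CPM), replicate 3 the least Gm42418 and replicate 1 the least Tgfb1 and Ltbp3.

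The other genes with a profile near that of Ltbp3 were found by Pearson's r in log2 CPM over the 8 libraries, which share their groups, so that a gene lower in AdNAMPT scores high by construction. The 5 highest were Pou3f1 (r = 0.99), Whrn (0.98), Gm17349 (0.98), Ihh (0.98) and Gm23935 (0.98), each past the threshold and lower in AdNAMPT. Pou3f1 encodes a POU-domain transcription factor, Whrn a scaffold protein of hair cells and photoreceptors, and Ihh the ligand Indian hedgehog. Tgfb1 came at rank 9 with r = 0.96, and Gm42418 at rank 30 with r = 0.92. For Tgfb1, Gm42418 came at rank 20 by the same measure (r = 0.94). After each group's mean was removed, the 5 highest were Krt7 (0.97), 6330403K07Rik (0.95), Slc7a4 (0.93), Pou3f1 (0.93) and Dalrd3 (0.93). Within the groups Tgfb1 ranked 466 for Ltbp3 (r = 0.64), and Gm42418 ranked 4800 (r = 0.12). For Tgfb1, Gm42418 ranked 3530 within the groups (r = 0.25). These r values describe 8 points that share library, depth and scaling, for genes with few reads.

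Among the tested genes nearest to Ltbp3 on chromosome 19, Sssca1 had a log2 fold change of -0.07 (SE 0.12), Ehbp1l1 0.07 (SE 0.16) and Map3k11 0.03 (SE 0.09). The nuclear noncoding RNAs Malat1, at -0.08 (SE 0.11), and Neat1, at 0.08 (SE 0.15), lie on its other side. None of these 5 genes passed the threshold. Around Tgfb1, a set looked at after its values were seen, B9d2, Exosc5, Bckdha, Ccdc97, Hnrnpul1 and Axl had log2 fold changes from -0.09 to 0.12, and none passed. Exons of Ltbp2 overlap D030025P21Rik over 764 bases and those of Tgfb2 overlap Gm29491 over 127 bases, and both of these features had 0 reads in every library. Whether reads were counted by strand is not given in the sources used here.

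The sequences just upstream of Tgfb1 and Ltbp3 are shown because these are the members whose levels differed together. They are the 250 bases before the transcription start in RefSeq on GRCm38.p6, 5′ to 3′, at chr7:25686752-25687001 and chr19:5740650-5740899, both on the plus strand. Capitals mark the GC box letters GGGCGG on either strand, the core of the site known for Sp1-type factors.
Tgfb1: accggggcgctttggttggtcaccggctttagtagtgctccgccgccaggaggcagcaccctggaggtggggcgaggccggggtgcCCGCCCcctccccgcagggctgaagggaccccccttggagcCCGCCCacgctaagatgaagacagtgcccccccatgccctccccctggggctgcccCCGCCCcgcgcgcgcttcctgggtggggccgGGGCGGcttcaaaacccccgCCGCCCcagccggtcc
Ltbp3: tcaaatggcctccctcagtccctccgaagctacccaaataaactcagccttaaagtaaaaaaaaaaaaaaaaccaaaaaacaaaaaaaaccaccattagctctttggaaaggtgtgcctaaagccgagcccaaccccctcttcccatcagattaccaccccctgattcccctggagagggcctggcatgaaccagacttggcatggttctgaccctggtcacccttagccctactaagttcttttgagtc
Tgfb1's window holds 5 matches to GGGCGG and is 75.2% GC, while that of Ltbp3 holds 0 matches and is 47.2% GC. Of 32851 promoters of the same length, 32.7% hold at least 1 match, and their median GC content is 52.4%. The letters CAGACA, the core of the CAGA element bound by Smad proteins, were found in neither window and in 17.1% of all promoters. Windows of the other members were matched for Tgfb2, Ltbp1, Ltbp2, Ltbp4, Tgfbr1 and Tgfbr2, and among them GGGCGG was found most often for Ltbp4, in windows with 3, 5 and 7 matches. The windows with 5 and 7 matches cover largely the same bases, so their counts share sites.

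The other genes of the pathway were taken from 6 lists holding 104 genes, of which 86 were tested. None passed the threshold by limma, against 0.277% of all genes. By edgeR's quasi-likelihood test 0 passed, against 33 of all 12270 genes, and by DESeq2 0 passed, against 75. With shares this small, 0 calls among 86 genes is near what any genes would give, so it says little about the pathway. At an unadjusted p under 0.05 there were 15 of the 86, 12 higher and 3 lower, which is 17.4% against 9.69% of all genes tested. The smallest adjusted p by limma was 0.287, for Fmod. On TMM-scaled CPM the groups did not overlap for 4 of the 86 in the higher direction (2.09% of all genes), Acvrl1, Smurf1, Bmp7 and Ski, and for 1 in the lower direction (2.7% of all genes), Plg, of which Ski was picked out after its values were seen. The median log2 fold change over the 86 genes was 0.11, where that of all genes tested was 0.00.

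**Figure D5:**
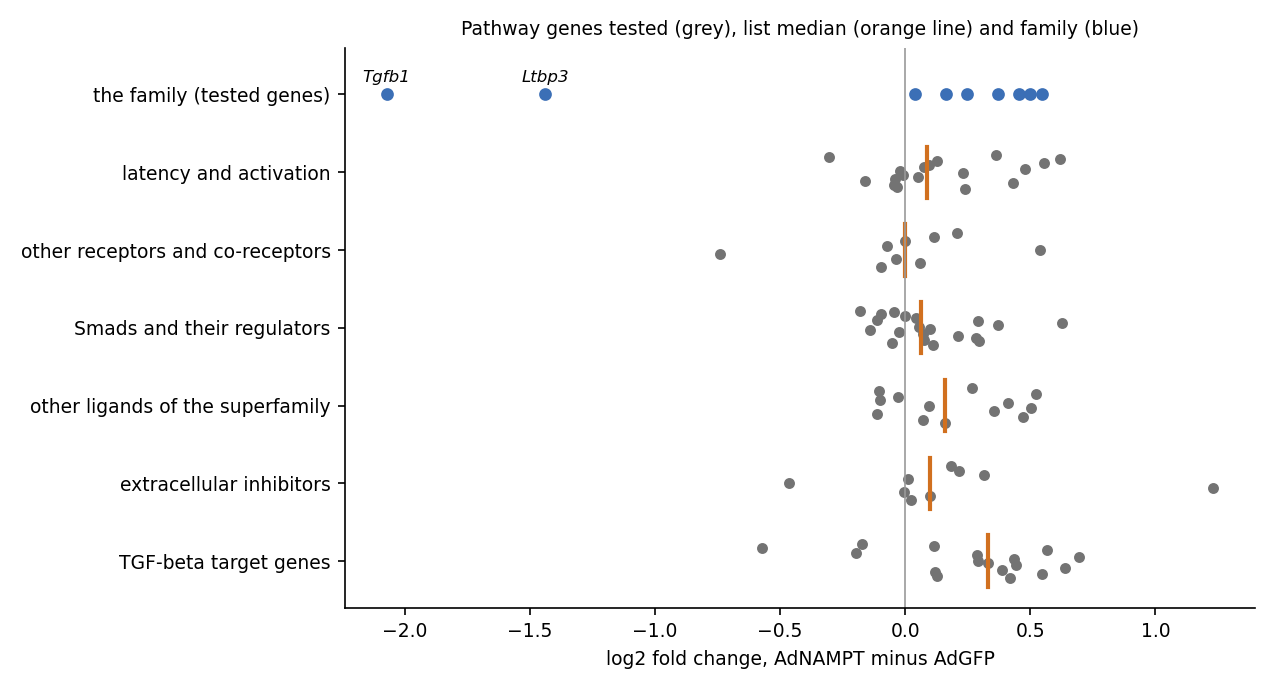
Log2 fold change (horizontal axis, AdNAMPT minus AdGFP) of each tested gene of the 6 pathway lists as grey points, with the median of each list as an orange line, and of the 9 tested members as blue points. Tgfb1 and Ltbp3 lie further left than any gene of the lists, the lowest of which is Acvr2b at -0.74.

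Latency and activation genes, 18 of 21 tested, had a median log2 fold change of 0.09. Fbn1, the fibrillin to which latent complexes attach, was at 6.98 ± 1.49 CPM with AdGFP and 9.88 ± 1.98 CPM with AdNAMPT (SD, n = 4 each), with a log2 fold change of 0.43 (SE 0.17). Plg, the hepatocyte gene for plasminogen and the highest of the list, was at 1392 ± 115 and 1200 ± 89.2 CPM (-0.30, SE 0.09). Among the other receptors and co-receptors, 9 of 11 tested with a median of 0.00, Acvrl1, the endothelial type I receptor known as ALK1, had 0.54 (SE 0.16), Acvr2b, an activin receptor, -0.74 (SE 0.26), and Eng, the co-receptor endoglin, 0.11 (SE 0.12). Acvrl1 had a mean of 2.27 ± 0.231 CPM and at most 2.61 CPM in AdGFP against a mean of 3.40 CPM in AdNAMPT. None of these genes passed the threshold.

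Smads and their regulators, 20 of 21 tested, had a median of 0.06. Smurf1, a ubiquitin ligase that works with Smad7, was at 15.1 ± 1.06 and 19.5 ± 1.15 CPM (log2 fold change 0.29, SE 0.09). Zfyve9, which presents Smads to the receptor, had -0.18 (SE 0.11) and Ppm1a, a Smad phosphatase and the highest of the list, 0.07 (SE 0.07). The other ligands of the superfamily, 13 of 17 tested, had a median of 0.16, with Bmp7 at 0.50 (SE 0.21), Bmp5 at -0.11 (SE 0.10) and the hepatocyte activin gene Inhbe, the highest, at 0.27 (SE 0.14). The extracellular inhibitors, 9 of 14 tested, had a median of 0.10, with Fmod, the matrix proteoglycan fibromodulin, at 1.23 (SE 0.32), Fst, the activin-binding protein follistatin, at -0.46 (SE 0.27) and Dcn, decorin, the highest, at 0.00 (SE 0.07). None of the genes of these 3 lists passed the threshold.

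The target genes of TGF-beta had the highest list median, 0.33 over 17 of 20 genes tested, with 14 estimates above 0 and 3 below. None passed. Col1a1, a chain of type I collagen, was at 5.59 ± 1.03 CPM in AdGFP and 9.18 ± 3.70 CPM in AdNAMPT (log2 fold change 0.64, SE 0.24), Snai2 had -0.57 (SE 0.19), and Bhlhe40, the highest, 0.13 (SE 0.16). In CPM without TMM scaling, 7 of the 17 genes were highest in AdNAMPT replicate 3 and 7 others in AdNAMPT replicate 4. Those of replicate 3 included Ccn1, Tgfbi, Col5a1, Id1, Junb and Bhlhe40. Those of replicate 4 were Col1a1, Col1a2, Col3a1, Col4a1, Acta2, Tagln and Postn. These genes were picked out after their values had been seen. TMM factors were 0.947 to 0.977 in AdGFP and 1.01 to 1.05 in AdNAMPT, so CPM without them runs higher in AdNAMPT. Tgfbi (-0.17, SE 0.10) and Postn (-0.20, SE 0.17) had negative TMM-scaled estimates. The share of all genes highest in each library was not counted, so these placements give no result on the target genes. AdNAMPT replicates 1 and 2 held the highest value of 0 of the 17 genes.

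Markers of the cells that could supply these transcripts were measured in the same libraries, and in whole liver fewer cells of a type and less RNA per cell cannot be told apart. All 8 Kupffer cell markers tested had negative estimates (median log2 fold change -0.38), with a summed level of 267 to 339 CPM in AdGFP and 200 to 328 CPM in AdNAMPT, none past the threshold. Stellate cell markers summed to 409 to 452 CPM in AdGFP and 417 to 441 CPM in AdNAMPT, with 4 of 9 estimates positive. Sinusoidal endothelium summed to 309 to 363 and 335 to 379 CPM, other endothelium to 54.1 to 68.0 and 59.0 to 75.7 CPM, and cholangiocyte markers to 26.7 to 42.2 and 29.6 to 44.4 CPM. Their median TMM-scaled log2 fold changes were 0.03, 0.19 and 0.04. All marker sums are CPM without TMM scaling, and scaling by library size alone put the median log2 fold change of all genes at 0.09. Markers of smooth muscle and portal fibroblasts, of which all 5 tested had positive estimates (median 0.49), summed to 15.2 to 25.4 CPM in AdGFP and 16.8 to 46.7 CPM in AdNAMPT. Acta2 and Tagln stand both among these markers and among the target genes of TGF-beta, so the lists are not independent. Erythroid markers summed to 276 to 530 and 364 to 600 CPM (median log2 fold change 0.11). Lymphocyte markers summed to 0.658 to 1.504 CPM in AdGFP and 1.33 to 4.13 CPM in AdNAMPT. All 7 had a higher mean in AdNAMPT, but none passed the filter on low counts. Cd8a, the best covered with 85 reads in all, was at 0.476 and 0.860 CPM. Cd3e, with 20 reads in all, was at 0.0448 and 0.274 CPM, the AdGFP mean being under the smallest detectable amount. Adipocyte markers summed to 0.0597 to 0.988 and 0.273 to 0.999 CPM, with Plin1 under 3 reads in every library. The part of these cell types in the levels of Tgfb1, Ltbp3, Ltbp4 and the other members was not tested.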

How the data were processed

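RNA-seq of 8 db/db livers was used, 4 AdGFP and 4 AdNAMPT, grouped by sample title. The labels name Ribo-Zero, whereas poly-A selection is what the paper's methods give. Reads of 50 bases were aligned with STAR (version 2.4.0b in the submitters' processing notes) to GRCm38 and counted by the authors with featureCounts 1.4.5. The counts deposited by the authors are unnormalised reads per gene, the deposited CPM values are those counts scaled to the library total, and the deposited RPKM values are CPM per exonic kilobase.

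Symbols came from GENCODE M21, matched for 40340 of 41388 features. Features annotated as ribosomal RNA (355) and genes not above 1 CPM in at least 3 libraries were left out. Following the study's methods, counts were scaled by TMM and fitted with limma's voomWithQualityWeights, with group as the only term and Benjamini-Hochberg adjustment over all 12270 genes. Replicates within a group differed by 11.3 to 81.8 chi-square per degree of freedom, and no library was a copy of another. In simulated counts the model called 196 of 200 genes changed 3-fold with 11 false calls among 12159 genes. Those counts were drawn independently for each gene, with changes up or down at random and no library standing apart. Calls in these data can thus be less secure than in the simulation.

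The members and lists were chosen with earlier results of these data known. Genes named are the 10 members, in each list the smallest unadjusted p in each direction and the highest level, the 3 nearest tested genes on each side of Ltbp3, features overlapping a member's exons (some items that these rules name are not reported here), the 5 genes most like Ltbp3 by either measure, cell markers, Nampt and Gm42418. Others are marked as chosen later. Floors and counting errors cover counting only. Alternatives were edgeR's quasi-likelihood test, DESeq2, no sample weights, DESeq2 size factors, library size alone, no filter, a mean count of at least 10, thinned counts, a replicate block, a GC correction, both together, an adjusted p of at most 0.1, and each library left out. The fits used limma 3.58.1, DESeq2 1.42.0 and edgeR 4.0.16 in R 4.3.3, and tables and plots were made with matplotlib 3.10.9 and pandas 2.3.3 in Python 3.11.15.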

Additional observations from a re-analysis of the deposited data

Results flagged for a closer look

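Values far from the rest of their group were sought in 108 groups of 4 libraries. Chance alone gives about 1 in 20, or 5.4 of them, and 3 were found, all in AdGFP replicate 2. Their number is thus no more than chance gives. Acvrl1, the endothelial type I receptor, was at 2.61 CPM there and at 2.12 to 2.19 CPM in the other AdGFP libraries. Ltbp1 held 7.63% of the summed RPKM of the latent binding proteins there and 9.76% to 10.2% in the others. Mitochondrial ribosomal RNA took 2.56% of counts there and 1.77% to 1.88% in the others. AdGFP replicate 2 also had the highest Tgfb1 level and the highest share of Gm42418 of all libraries.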

How the results depend on the processing

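The log2 fold changes of Tgfb1, Ltbp3, Ltbp4, Ltbp1, Ltbp2, Tgfb3 and Tgfbr2 kept their sign under all 19 alternatives, while 4 turned that of Tgfbr1 and 1, without AdNAMPT replicate 3, that of Smad7. The number of genes past the threshold was 34, and it was 75 with DESeq2 and between 28 and 38 with 1 library left out. The number of members past it was 2, and between 0 and 2 with 1 library left out. It was 0 without AdNAMPT replicate 2 and 1 in 6 other such fits, since Ltbp3 was lost in 7 and Tgfb1 in 1. The number of pathway genes past it was 0 in every alternative. Same-numbered libraries deviated together in 2 of 4 pairs (r from -0.05 to 0.23), and for differently numbered libraries r ran from -0.30 to 0.24. These values cannot settle whether the numbers pair the mice, and the main model used no pairing. With the replicate block 41 genes passed, 2 members and 0 pathway genes among them, and with the replicate block and GC correction 42. Scaling by library size alone moved the median of all genes to 0.09 and gave 39 genes, 8 of them higher against 2 of 34. Low reads limit Tgfb2, Tgfb3 and Ltbp2 most.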
